A study of Mus musculus with 6 samples.

Results

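Liver X receptors (LXRs) are nuclear receptors that sense oxysterols, the oxidized forms of cholesterol. They bind DNA as heterodimers with the retinoid X receptor (RXR) and switch on genes that export sterols, remodel phospholipids and, in the liver, drive fatty acid synthesis through SREBP1c. The 10 genes described here are the receptors Nr1h3, Nr1h2 and Rxra and the LXR target genes Abca1, Abcg1, Abcg5, Abcg8, Mylip, Lpcat3 and Rnf145. They were chosen by gene symbol, and all 10 were found among the 17460 gene symbols of the liver RNA-seq table. In these livers none of the 10 genes passed the test for a difference between the groups (log2 fold changes from −0.14 to 0.10).

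The livers came from C57BL/6 mice aged 9 months that had eaten a NASH diet, rich in fructose, trans fat and cholesterol, for 24 weeks. There were 3 control liver samples and 3 from mice with liver-specific inactivation of the long noncoding RNA Blnc1 (Blnc1 LKO). The study made Blnc1 LKO mice by injecting Cas9 transgenic mice through the tail vein with an adenovirus that expresses sgRNAs against Blnc1, and describes GFP adenovirus in Cas9 transgenic mice as the control of its high-fat diet experiment. The allele that drives Cas9 is constitutive, so it would be carried by controls made that way too, and non-parenchymal liver cells, which adenovirus transduces poorly, keep Blnc1. Whole liver was measured, so fewer cells of a type and less RNA per cell cannot be told apart.

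PolyA-selected RNA was sequenced, and the libraries held from 65384969 to 89350181 reads on listed genes. The values below are normalized read counts, that is the reads of a gene after scaling by the size factor of its liver, without correction for gene length. Livers within a group varied beyond counting error (chi-square from 20.8 to 70.0 per degree of freedom), and hepatocyte markers such as Alb were abundant in every liver. The loss of Blnc1 was not checked here. The study reports that in mice made this way Blnc1 was only partly reduced in whole liver, and more so, though not fully, in hepatocytes. RefSeq gives Blnc1 as a synonym of the neighbouring gene Paqr9, which had 16972 ± 1827 for controls against 17986 ± 2196 for Blnc1 LKO (SD, n = 3 each). Differences between the groups were tested by limma, on log2(value + 1) of 17297 genes with Benjamini-Hochberg adjustment. Over all genes tested 1 passed an adjusted p under 0.05, which is 0.00578% of them.

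LXR and RXR bind a direct repeat of a hexamer spaced by 4 bases. RefSeq promoter windows, which span 300 bases around a start site, mostly upstream of it, were found for 9 of the 10 genes (all but Abcg1), with 14 windows in all (GRCm38.p6). The consensus hexamer AGGTCA, searched on both strands, was in 1 of these 14 windows, an Rxra window, and in 16.3% of the 32817 windows of all genes. The consensus repeat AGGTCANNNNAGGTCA was in none of the 14 exactly and in 3 with up to 3 mismatches, against 21.9% of all windows. A variant of the repeat, GGGTTANNNNCGGTCA, was chosen after the Abca1 and Srebf1 windows had been read. It was found exactly in 3 of the 32817 windows, those of Abca1, Srebf1 and Fasn. With up to 2 mismatches it was in 0.996% of all windows and in 2 of the 14, Abca1 and Rnf145. The Abca1 window is counted there although the letters were chosen after reading it, so the 2 shares cannot be compared. The following stretches of 40 bases show these matches on the + strand with the hexamers in capitals, because the values of Abca1 and Rnf145 are set beside those of Srebf1 and Fasn further on. They lie at chr4:53159935-53159974 (Abca1), chr11:60210626-60210665 (Srebf1), chr11:120824745-120824784 (Fasn) and chr11:44520185-44520224 (Rnf145).
Abca1: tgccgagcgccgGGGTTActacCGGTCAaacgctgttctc
Srebf1: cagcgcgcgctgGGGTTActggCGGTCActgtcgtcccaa
Fasn: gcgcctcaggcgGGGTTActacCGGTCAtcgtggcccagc
Rnf145: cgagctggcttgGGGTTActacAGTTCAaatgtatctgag
The far end of the repeat lies 67 bases before the start site of Abca1 and 225 before that of Fasn. In Srebf1 it lies 182 bases before the most downstream of 3 listed start sites. In Rnf145 it lies 92 bases before the last of 3 listed start sites and has 2 mismatches. Such a match describes these letters and is not evidence of binding.

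RefSeq lists 1 start site for Abcg5 and 2 for Abcg8, at 84676302 within Abcg5 and at 84683121. The latter lies 110 bases from the Abcg5 start, on the opposite strand of chromosome 17, and the promoter windows of these starts overlap. The shared 209 bases, chr17:84682962-84683170, are shown on the + strand since the values of the gene pair varied together (below), with the bases from the Abcg5 start (84683011) to this Abcg8 start in capitals. The best match to the consensus repeat in the windows around these starts had 4 mismatches.
Abcg5 and Abcg8: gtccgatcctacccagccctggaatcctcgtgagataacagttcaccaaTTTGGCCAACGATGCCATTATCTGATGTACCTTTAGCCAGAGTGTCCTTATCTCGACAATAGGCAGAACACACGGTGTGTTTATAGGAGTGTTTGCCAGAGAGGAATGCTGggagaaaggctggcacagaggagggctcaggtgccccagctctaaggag

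The receptors were compared first. Nr1h3 encodes LXRα, the main LXR of hepatocytes, and lies on chromosome 2 from 91184061 to 91202834 (GRCm38, − strand). Its normalized read counts were 8772, 8761 and 8451 in the control group against 9137, 8846 and 9489 in the Blnc1 LKO group. All 3 Blnc1 LKO livers were above every control liver, by a small margin. Exons of Nr1h3 share 34 bases with the noncoding gene Gm13783. The means were 8661 ± 182 and 9157 ± 322 (SD, n = 3 each), a difference that did not pass the test, with a log2 fold change of 0.08 (95% interval −0.04 to 0.20, standard error [SE] 0.051, limma adjusted p = 0.951). Nr1h3 was the only 1 of the 10 genes whose groups did not overlap. Over all genes tested, 5.35% had every Blnc1 LKO liver above every control liver and 5.28% had every one below. With the reads scaled by library size alone, the values of Nr1h3 overlapped too.

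Nr1h2 encodes LXRβ, which is expressed in most tissues, and lies on chromosome 7 from 44549616 to 44553951 (− strand). Its values were 3255, 3146 and 2973 in the control group against 2866, 3245 and 3049 in the Blnc1 LKO group. The groups overlapped, with the lowest value in Blnc1 LKO replicate 1. The log2 fold change was −0.03 (95% interval −0.18 to 0.11, SE 0.065, limma adjusted p = 0.986), and 0.01 without that liver. Rxra encodes RXRα, the partner of LXR and of several other nuclear receptors in hepatocytes, on chromosome 2 from 27676440 to 27762957 (+ strand). It had 30521, 31043 and 27883 in the control group against 31765, 29354 and 34920 in the Blnc1 LKO group. The highest value was in Blnc1 LKO replicate 3 and the lowest in control replicate 3, and the groups overlapped. The log2 fold change of Rxra was 0.10 (95% interval −0.08 to 0.28, SE 0.080, limma adjusted p = 0.971). The interval for each of the 3 receptors left out a change of more than 1.22-fold in either direction.

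**Figure D1:**
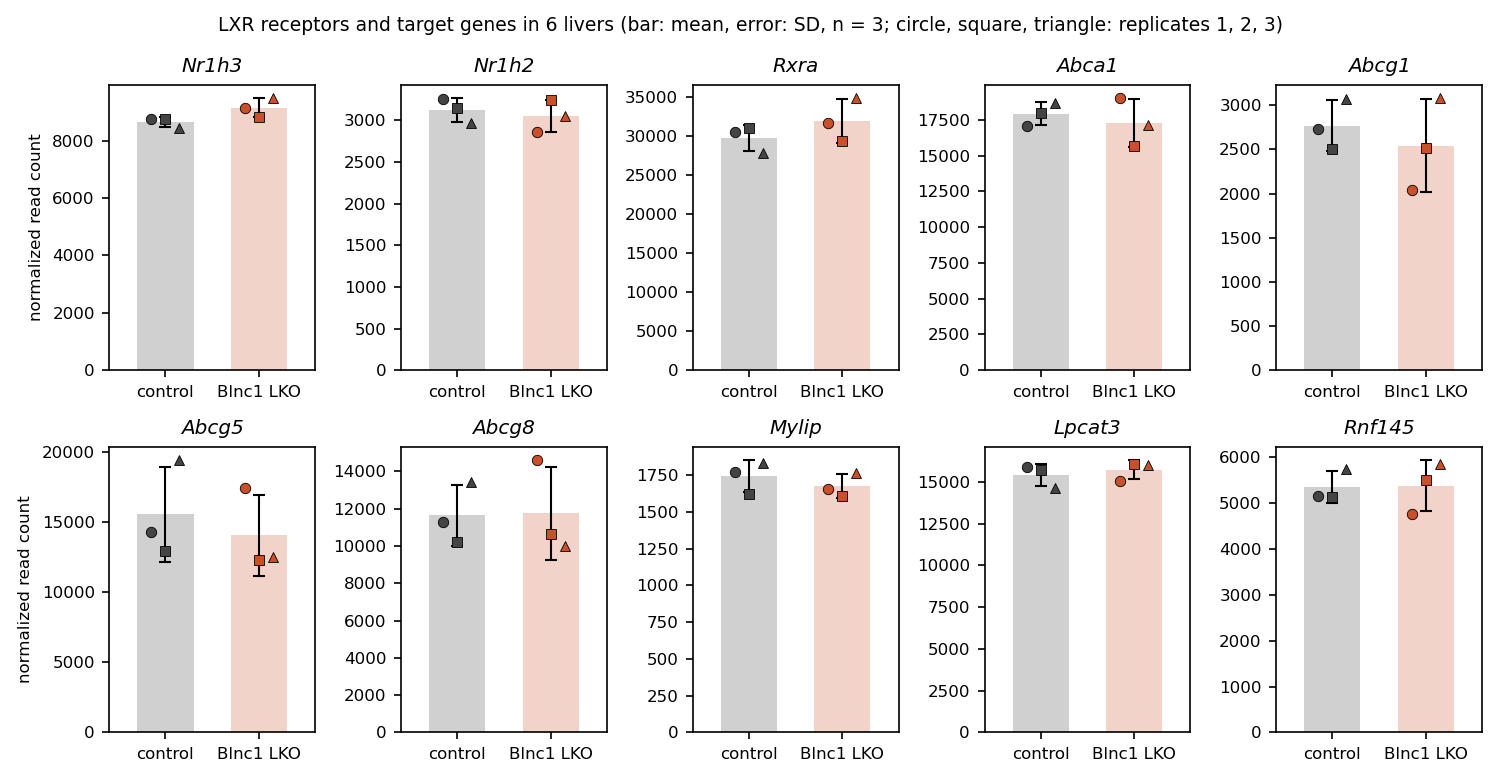
Normalized read counts of the 10 genes (vertical axes from 0, scaled per gene) in control and Blnc1 LKO livers, with 1 symbol per liver, bars for group means and error bars for the SD (n = 3 livers each). The points of the groups overlap for every gene except Nr1h3, whose Blnc1 LKO values of 8846 to 9489 lie above the control values of 8451 to 8772.

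The sterol exporters were compared next. Abca1 loads cholesterol and phospholipid onto lipid-poor apolipoprotein A-I and lies on chromosome 4 from 53030787 to 53159895 (− strand). Its values were 17098, 18007 and 18677 in the control group against 19018, 15701 and 17120 in the Blnc1 LKO group. The highest and the lowest of the 6 values were both in Blnc1 LKO livers. The mean was 17928 ± 792 for controls against 17280 ± 1665 for Blnc1 LKO (SD, n = 3 each). The log2 fold change was −0.06 (95% interval −0.23 to 0.12, SE 0.077, limma adjusted p = 0.978), and 0.01 without Blnc1 LKO replicate 2.

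Abcg1 passes cholesterol on to high-density lipoprotein and is prominent in macrophages. It lies on chromosome 17 from 31057675 to 31117988 (+ strand). Its values were 2735, 2500 and 3074 in the control group against 2035, 2512 and 3081 in the Blnc1 LKO group. Blnc1 LKO replicate 1 was lowest and Blnc1 LKO replicate 3 was highest, level with control replicate 3. The log2 fold change was −0.14 (95% interval −0.46 to 0.18, SE 0.14, limma adjusted p = 0.973), and without Blnc1 LKO replicate 1 it was 0.01. The summed values of 11 Kupffer cell and macrophage markers ranged from 36768 to 41782 in control and from 42599 to 47275 in Blnc1 LKO livers, none at 0 in any liver. These sums did not overlap between the groups, whereas those of hepatocyte, endothelial, stellate cell, cholangiocyte and lymphocyte markers did. Among single genes, 5.35% of all tested had every Blnc1 LKO liver above every control liver. Clec4f of Kupffer cells had the largest difference in mean among the 11 markers. It had 9164 ± 2269 for controls against 12496 ± 2382 for Blnc1 LKO (SD, n = 3 each), with overlapping groups. Of the 11 markers, 5 were higher at an unadjusted p under 0.05, among them Marco, Vsig4 and Adgre1 of Kupffer cells, and 1 was lower, Gpnmb of lipid-laden macrophages. Over all genes tested, 509 of 17297 were higher and 474 lower at that p. Cd68 and Trem2 had log2 fold changes of −0.13 and −0.16 and did not pass it. None passed an adjusted p under 0.05 in limma (lowest 0.577, for Marco), edgeR or DESeq2. Their part in the values of Abcg1 was not tested.

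Abcg5 and Abcg8 form a heterodimer that secretes sterols into bile, and lie on chromosome 17 from 84658234 to 84683011 (− strand) and from 84676302 to 84700333 (+ strand). Abcg5 had 14271, 12966 and 19410 in the control group against 17410, 12301 and 12528 in the Blnc1 LKO group. Abcg8 had 11257, 10205 and 13441 in the control group against 14589, 10630 and 10012 in the Blnc1 LKO group. Control replicate 3 and Blnc1 LKO replicate 1 held the highest values of both genes, so the high livers were split between the groups. The log2 fold change was −0.14 for Abcg5 (95% interval −0.53 to 0.25, SE 0.17, limma adjusted p = 0.976). For Abcg8 it was 0.0027 (95% interval −0.33 to 0.34, SE 0.15, limma adjusted p = 1.00). Without control replicate 3 the difference of Abcg5 was 0.03, and without Blnc1 LKO replicate 1 that of Abcg8 was −0.16. These were the widest intervals among the 10 genes, and that of Abcg5 reached from 0.693-fold to 1.19-fold. Each liver held at least 12170 reads on Abcg5, for which counting alone gives a coefficient of variation of at most 0.906%, whereas the coefficient between livers was 21.9% in control and 20.5% in Blnc1 LKO livers.

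The ratio of Abcg5 to Abcg8 within a liver, which does not depend on the scaling between livers, was steadier than either gene. It was 1.27, 1.27 and 1.44 in the control group against 1.19, 1.16 and 1.25 in the Blnc1 LKO group. All 3 Blnc1 LKO livers were below every control liver, by 0.14 on the log2 scale in the mean (exact two-sided permutation test, p = 0.1, the smallest that 3 against 3 livers can give, and 0.4 after adjustment over 4 ratios). Exons of these genes share 82 bases on opposite strands, which is 3.02% of the exon length of Abcg5 and 2.19% of that of Abcg8. The ratios of Abca1 to Abcg1, Nr1h3 to Nr1h2 and Nr1h3 to Rxra overlapped between the groups (exact permutation p from 0.3 to 0.9).

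The remaining target genes act on lipoprotein uptake, membranes and sterol sensing. Mylip encodes IDOL, an E3 ubiquitin ligase that marks the LDL receptor for degradation, and lies on chromosome 13 from 45389742 to 45412022 (+ strand). It had 1768, 1624 and 1835 in the control group against 1653, 1608 and 1766 in the Blnc1 LKO group. The values overlapped, with a log2 fold change of −0.06 (95% interval −0.21 to 0.10, SE 0.069, limma adjusted p = 0.978). Its sign was the same without any 1 of the 6 livers (−0.11 to −0.02), as it was for Nr1h3 (0.05 to 0.10) and Rxra (0.04 to 0.16) and for none of the other 7 genes.

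Lpcat3 places polyunsaturated fatty acids into phospholipids and lies on chromosome 6 from 124663027 to 124704418 (+ strand). It had 15900, 15680 and 14651 in the control group against 15063, 16091 and 15993 in the Blnc1 LKO group. This was the most even of the 10 genes, with the highest of the 6 values 1.10 times the lowest. Its log2 fold change was 0.03 (95% interval −0.10 to 0.16, SE 0.058, limma adjusted p = 0.986), and −0.0075 without control replicate 3. Exons of Lpcat3 share 334 bases, 10.2% of their length, with Emg1 on the opposite strand, and the library kit does not mark strand.

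Rnf145 encodes an E3 ubiquitin ligase of the endoplasmic reticulum that acts on the sterol-sensing machinery, on chromosome 11 from 44518964 to 44565520 (+ strand). Its values were 5157, 5122 and 5745 in the control group against 4767, 5511 and 5849 in the Blnc1 LKO group. The groups overlapped, with both the lowest and the highest value in Blnc1 LKO livers. For Rnf145 the log2 fold change was 0.0061 (95% interval −0.19 to 0.20, SE 0.084, limma adjusted p = 1.00), and from −0.06 to 0.09 without 1 liver.

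**Figure D2:**
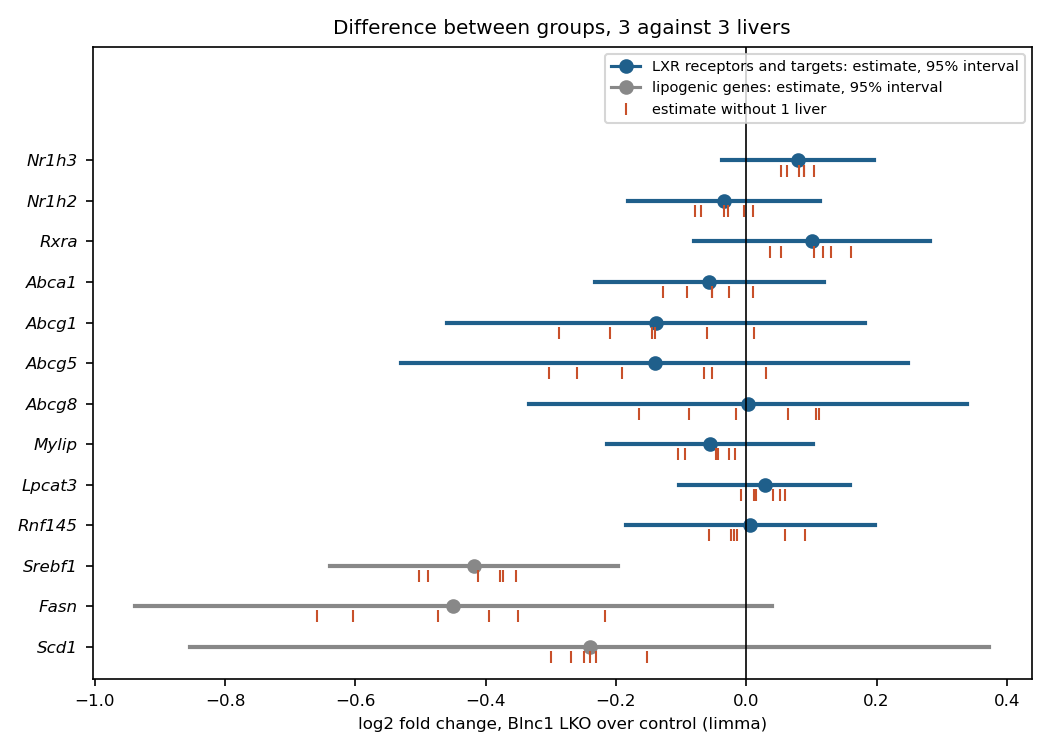
Log2 fold change of Blnc1 LKO over control (horizontal axis) for the 10 genes and for Srebf1, Fasn and Scd1, with limma's 95% interval as a line and the estimate without each liver as a tick. The intervals of all 10 genes include 0, and that of Srebf1 lies from −0.64 to −0.20.

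Of the 10 genes, 5 had a higher and 5 a lower log2 fold change, with a median of −0.02, while the median over all genes tested was −9.9e-04. None passed an adjusted p under 0.05 in limma, in edgeR or in DESeq2 on the recovered reads, which called 0.538% of the genes for which it gave an adjusted p. None had an unadjusted p under 0.05 in limma, against 5.68% of all genes tested. The values therefore place each gene within an interval and do not show that the groups were equal.

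Levels were compared between genes per exon length, as reads per kilobase of exon scaled to the total of reads on listed genes (RPKM). In control livers, Abcg5 had the highest mean at 77.1 ± 16.5, followed by Rxra at 73.5 ± 4.55 and Lpcat3 at 63.5 ± 3.06 (SD, n = 3 each). The place of Abcg5 rested on control replicate 3 (95.8), as Rxra was above it in the other control livers and in the Blnc1 LKO mean (78.6 against 69.3). Nr1h3 (46.4 ± 1.21) and Abcg8 (41.8 ± 5.70) came next, then Abca1 (23.3 ± 0.944) and Nr1h2 (12.5 ± 0.627), all SD with n = 3. Rnf145 (9.23 ± 0.555), Mylip (7.25 ± 0.418) and Abcg1 (5.11 ± 0.505) were lowest. Over the 6 livers, the ranges of Abcg5 and Rxra, of Rxra and Lpcat3, and of Nr1h3 and Abcg8 overlapped, and those of the other neighbours in this order did not. LXRα mRNA was thus above LXRβ mRNA in every liver on this scale, with 44.96 to 50.5 for Nr1h3 and 11.0 to 13.6 for Nr1h2.

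**Figure D3:**
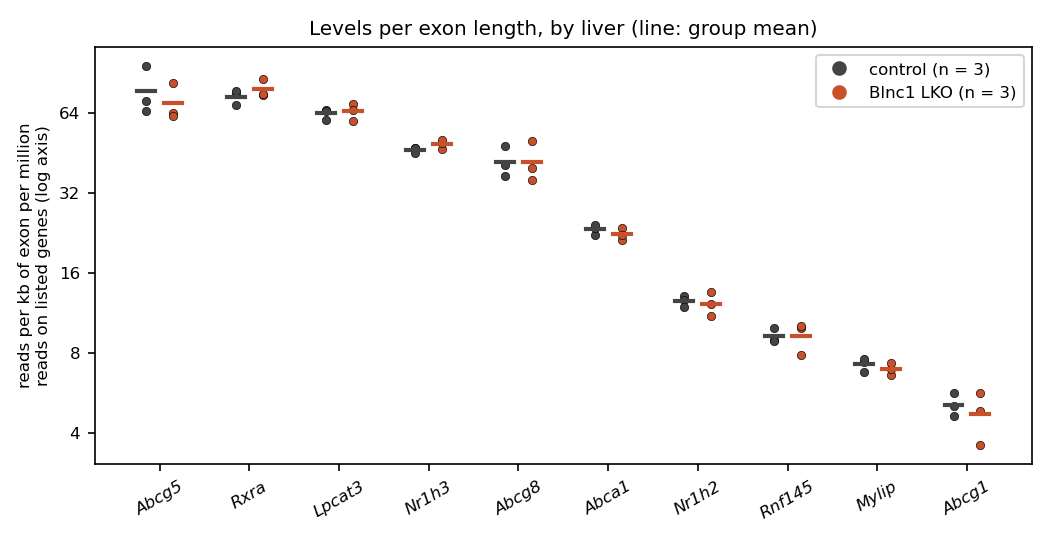
Level of each of the 10 genes per exon length (vertical log axis, RPKM) in order of the control mean, with 1 point per liver and a line for each group mean (n = 3). Abcg5, Rxra and Lpcat3 lie between 59.2 and 95.8, and Abcg1 between 3.58 and 5.66.

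The genes were also compared with each other across the 6 livers, on log2(value + 1). Abcg5 and Abcg8 varied together, with a Pearson r of 0.92 (exact permutation p = 0.0236) and a Spearman rho of 0.77 (p = 0.103, exact permutation). Within groups, after centring each on its mean, r was 0.96, and without the 2 livers farthest from the median of Abcg5 it was 0.74. Nr1h3 and Rxra, the LXRα and RXRα partners, had an r of 0.94 (p = 0.0153) and a rho of 0.77 (p = 0.103, exact permutation). Their r was 0.99 after centring and 0.54 without the 2 farthest livers, so part of the relation rests on control replicate 3 and Blnc1 LKO replicate 3. Abcg1 and Rnf145 had an r of 0.89 (p = 0.0139) and a rho of 0.94 (p = 0.0167, exact permutation), with 0.63 left without the 2 farthest livers. The strongest inverse relation was between Abcg5 and Lpcat3, with an r of −0.96 (p = 0.00972) and a rho of −0.94 (p = 0.0167, exact permutation), which fell to −0.38 without control replicate 3 and Blnc1 LKO replicate 1. Abca1 and Lpcat3 had an r of −0.84 (p = 0.0278, exact permutation) and −0.92 without the 2 farthest livers. Nr1h2 and Abca1 had an r of −0.82 (p = 0.0472, exact permutation) and −0.80 without the 2 farthest livers. None of the 45 pairs passed Benjamini-Hochberg adjustment (adjusted p of at least 0.229 for Pearson and 0.375 for Spearman, exact permutation).

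**Figure D4:**
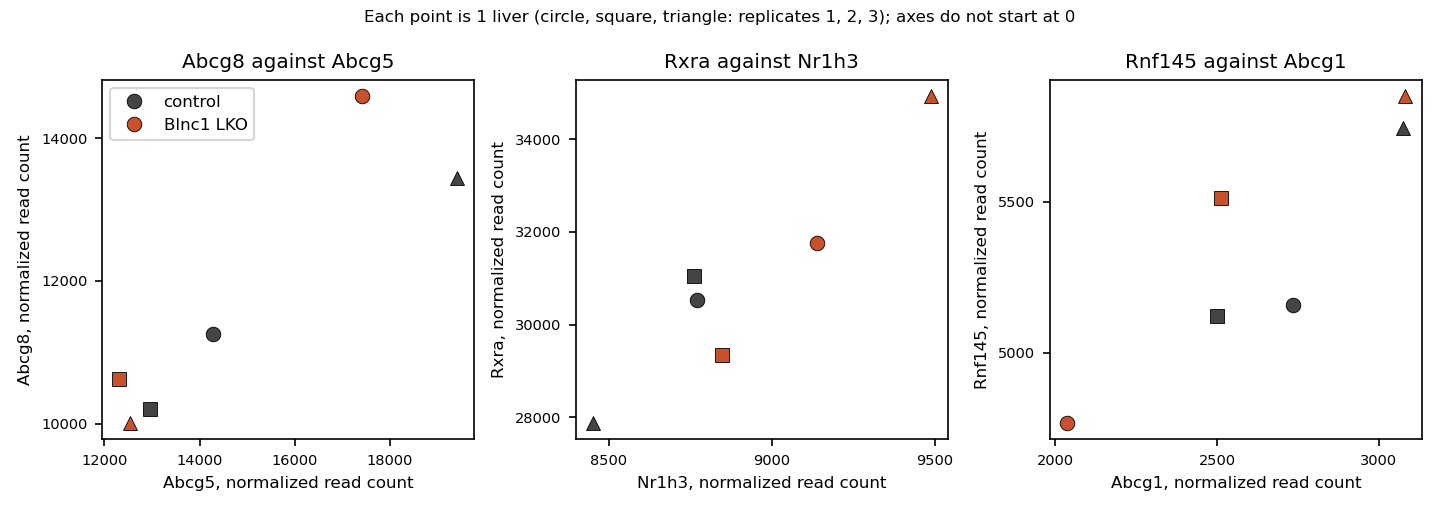
Normalized read counts of Abcg8 against Abcg5, Rxra against Nr1h3 and Rnf145 against Abcg1, with 1 point per liver (axes do not start at 0). Control replicate 3 (dark triangle) and Blnc1 LKO replicate 1 (orange circle) hold the highest Abcg5 and Abcg8 values, 19410 and 17410 for Abcg5 in that order.

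With 6 livers, many genes track any given gene closely. Among 12487 other genes with a mean of at least 100, the gene most like Nr1h3 was Abcb4 (Pearson r of 0.99), a phospholipid transporter of bile, and Rxra ranked 76. The gene most like Rxra was Tmprss6 (r of 0.98), a hepatocyte protease, and Nr1h3 ranked 48. Abcg8 ranked 100 for Abcg5 and Abcg5 ranked 163 for Abcg8, behind the closest genes Myef2 and Hal (r of 0.99 and 1.00). For Abca1, Abcg1, Nr1h2, Mylip, Lpcat3 and Rnf145 the closest genes were Pcnp, Ttc39aos1, Cln3, Lsm11, Ap5b1 and Cnot3 (r from 0.99 to 1.00), and the closest of the other 9 genes ranked from 90 to 1025.

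Other genes of the pathway were read from lists. Over all 17297 genes tested, 8582 were higher and 8715 lower in Blnc1 LKO livers, and 509 were higher and 474 lower at an unadjusted p under 0.05 (5.68% together, limma). Of 12 lipogenic LXR targets, 11 had a lower and 1 a higher log2 fold change, with a median of −0.22, and 4 had every Blnc1 LKO liver below every control liver (Srebf1, Scd1, Elovl5 and Acsl3), against 5.28% of all genes tested. None passed an adjusted p under 0.05 in limma or edgeR, 3 had an unadjusted p under 0.05 and were lower (Srebf1, Acsl3 and Acly), and DESeq2 called Srebf1 (adjusted p = 0.0111). Lipogenic genes of these livers were known to be lower when the list was chosen, so the count is not independent evidence of the direction. Srebf1, which encodes SREBP1, had a log2 fold change of −0.42 (SE 0.097, limma adjusted p = 0.548), and Fasn, fatty acid synthase, one of −0.45 (SE 0.21, limma adjusted p = 0.891). Acsl3, an acyl-CoA synthetase, had 2739, 3362 and 3874 in the control group against 2621, 2630 and 2201 in the Blnc1 LKO group (log2 fold change −0.41, SE 0.12, limma adjusted p = 0.745). Mlxipl, which encodes ChREBP, had the 1 higher value, at 0.02.

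Srebf1 was therefore set against Abca1 and Nr1h3 within each liver, ratios that were chosen after the values were seen. The ratio of Srebf1 to Abca1 was 3.09, 2.43 and 2.61 in the control group against 1.79, 2.18 and 2.37 in the Blnc1 LKO group. The ratio of Srebf1 to Nr1h3 was 6.02, 4.999 and 5.77 in the control group against 3.72, 3.87 and 4.28 in the Blnc1 LKO group. Neither ratio overlapped between the groups. In the mean they were lower by 0.36 and 0.50 on the log2 scale in Blnc1 LKO livers. Since the genes were picked for these values, these ratios are a description with no p-value.

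A further list held 22 genes taken as other LXR targets, such as the lipoprotein genes Apoe, Apoc1 and Pltp and the macrophage genes Mertk and Cd5l. Of these 22, 9 were higher and 13 lower, with a median log2 fold change of −0.01. None passed an adjusted p under 0.05 in limma, edgeR or DESeq2. Lcn2, lipocalin 2, was the 1 gene with an unadjusted p under 0.05 and had 15393 ± 2868 for controls against 11043 ± 2201 for Blnc1 LKO (SD, n = 3 each, adjusted p = 0.824, limma). Its values overlapped between the groups, and whether it responds to LXR in these livers was not tested.

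The enzymes that make and remove sterol ligands gave 6 higher and 6 lower of 12, with a median of 0.02. None passed an adjusted p under 0.05 in limma, edgeR or DESeq2, and 2 had an unadjusted p under 0.05, both higher. Cyp27a1, which makes a side-chain oxysterol that binds LXR, had 29849, 30017 and 29998 in the control group against 34418, 31094 and 36662 in the Blnc1 LKO group (log2 fold change 0.18, SE 0.071, limma adjusted p = 0.851). Its groups did not overlap, as was the case in this direction for 5.35% of all genes tested. Cyp7b1, which hydroxylates oxysterols further, had 3345, 5684 and 3584 in the control group against 8273, 4956 and 6436 in the Blnc1 LKO group (log2 fold change 0.65, SE 0.22, limma adjusted p = 0.824). Control replicate 2 lay above Blnc1 LKO replicate 2.

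Of 18 corepressors and coactivators of LXR, 7 were higher and 11 lower, with a median of −0.02 and none at an unadjusted p under 0.05 in limma or an adjusted p under 0.05 in limma, edgeR or DESeq2. The genes with the highest normalized read counts, not corrected for length, were Edf1, a protein partner of Blnc1 in the study (10953 ± 271 for controls against 10490 ± 328 for Blnc1 LKO), and the corepressor Ncor1, both with overlapping groups. Of 16 other RXR isoforms and partner receptors, 10 were higher and 6 lower, with a median of 0.01 and none past an adjusted p under 0.05 in limma, edgeR or DESeq2. Thrb, a thyroid hormone receptor, had 2548, 2745 and 2901 in the control group against 3207, 3008 and 3463 in the Blnc1 LKO group (log2 fold change 0.24, SE 0.073, limma adjusted p = 0.745). Vdr and Nr4a2 also had an unadjusted p under 0.05 and were lower, with log2 fold changes of −0.77 and −0.48 (adjusted p = 0.824 each, limma). Vdr was low, with at most 38.4 normalized reads in any liver. Of 13 other transporters of the ABCA and ABCG families, 9 were higher and 4 lower, with a median of 0.08 and none past an adjusted p under 0.05 in limma or edgeR or in DESeq2. Abcg2, an exporter of drugs and urate, and Abca13 had an unadjusted p under 0.05. Abca13 had at most 15.04 normalized reads in any liver.

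**Figure D5:**
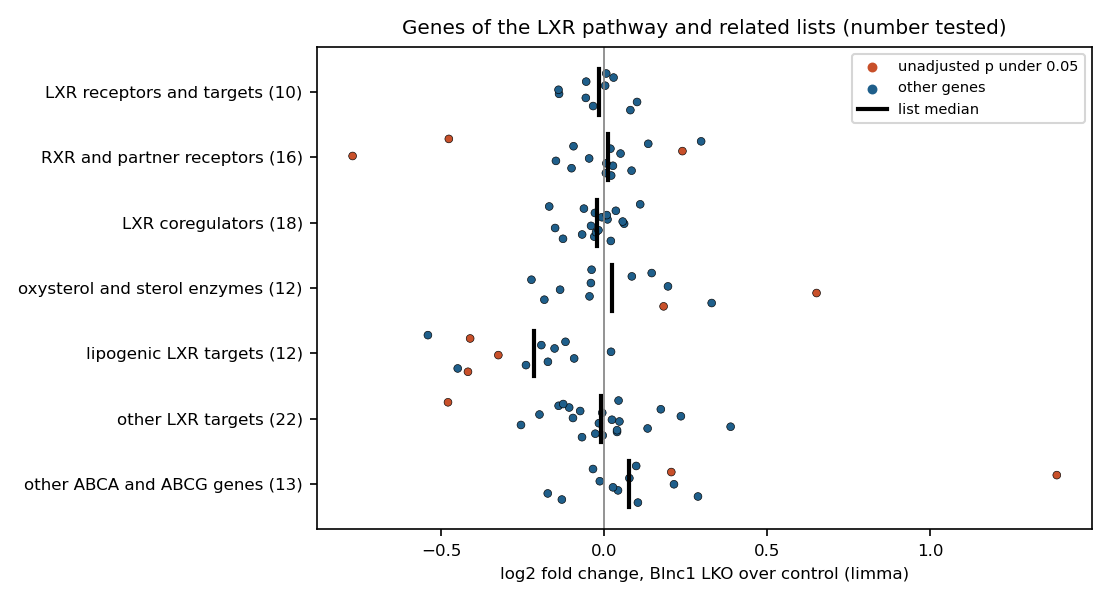
Log2 fold change of Blnc1 LKO over control (horizontal axis) for each gene of 7 lists, with the number of genes tested in brackets, orange points for an unadjusted p under 0.05 in limma and a black line at the list median. The median of the lipogenic targets is −0.22 and that of the 10 LXR receptors and targets is −0.02.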

How the data were processed

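The authors used STAR to align reads to the mouse genome (mm10), HTSeq to count reads on genes and DESeq2 for normalization and testing. The annotation, strand setting and filters are not given in the sources used here. The deposited signal is the read count of a gene divided by the size factor of the liver, so it carries the authors' scaling. Columns named for wild-type and knockout livers were matched to control and Blnc1 LKO samples of the same number. Nothing in the labels pairs the livers or says that replicates came from separate mice, so p-values measure the spread between these samples, which may be technical.

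Values as log2(value + 1) were fitted with limma (version 3.58.1, R 4.3.3, eBayes with a trend) over 17297 genes with at least 1 in at least 3 livers. Whole reads were recovered by dividing by the smallest value above 0 in each column (100% whole within 0.05) and used for edgeR (4.0.16), DESeq2 (1.42.0), voom and levels per exon length (GENCODE M21, GRCm38). The limma, edgeR (TMM), DESeq2 and voom fits were tested on simulated counts, with planted changes larger than any seen in the 10 genes. The fits with a replicate block, another pseudocount, other filters or scalings, or 1 liver left out were not. Promoter windows are RefSeq's (GRCm38.p6). The 4 ratios among the 10 genes and the correlations were tested by exact permutation (scipy 1.17.1), and 95% intervals are limma's.

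The 10 genes and the lists were chosen with earlier results of these data known. Genes named from a list are those with the smallest unadjusted p under 0.05, at most 4 each, or the 2 of highest normalized read count. Others named were chosen after their values were seen. Alternatives were another pseudocount, other filters, scalings and tests, the replicate number as a block and each liver left out.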

Additional observations from a re-analysis of the deposited data

How the results depend on the processing

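None of the 10 genes passed an adjusted p under 0.05 in any alternative, and under every alternative that kept all 6 livers each kept its direction. The number of genes past the test over the whole table was 1 in limma, 2 without a filter, 2 in edgeR with TMM or RLE factors, 84 in DESeq2, 64 in DESeq2 with the replicate block and 0 in limma with the replicate block, and from 0 to 13 with 1 liver left out. In DESeq2, 1 lipogenic target (Srebf1, log2 fold change −0.42) and 2 stellate cell markers were called lower. In DESeq2 with the replicate block, 1 lipogenic target (Srebf1, −0.42), 1 gene listed with other LXR targets (Lcn2) and 1 endothelial marker (Lyve1) were. There, 0 stellate cell markers were called lower. No other list changed its count of calls with the replicate block. Deviations of same-numbered livers from their group means correlated at −0.06, −0.02 and −0.11, so they gave no sign of pairing by number. With so few livers a group, a weak pairing need not show in these values.

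With reads scaled by library size alone, 0 of the 10 genes had groups that did not overlap, and with 1 liver left out from 1 to 3 had. Smaller groups separate more easily without any difference, and the share over all genes was not computed for these settings. The counts are therefore not a result about the 10 genes. With each liver left out in turn, log2 fold changes ranged from −0.079 to 0.011 for Nr1h2, −0.13 to 0.010 for Abca1, −0.29 to 0.012 for Abcg1, −0.30 to 0.031 for Abcg5, −0.16 to 0.11 for Abcg8, −0.0075 to 0.059 for Lpcat3 and −0.057 to 0.090 for Rnf145. The log2 ratio of Abca1 to Abcg1 ranged from −0.14 to 0.24 and that of Nr1h3 to Rxra from −0.057 to 0.018. Without the 2 farthest livers, r was 0.54 for Nr1h3 and Rxra, 0.63 for Abcg1 and Rnf145 and −0.38 for Abcg5 and Lpcat3. With 3 livers a group, differences of the size of the intervals given could not be detected. A difference whose interval left out 0 could also fail the adjusted p. Srebf1, with an interval of −0.64 to −0.20, had a limma adjusted p of 0.548. Depth set no limit, as each of the 10 genes had at least 1389 reads in every liver.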

Other observations

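The promoter windows that held the repeat GGGTTANNNNCGGTCA exactly, 3 of 32817, belonged to Abca1, Srebf1 and Fasn. The Abca1 and Srebf1 windows had been read before the letters were chosen, and the Fasn window had not. Side by side, the log2 fold changes of these genes in Blnc1 LKO livers were −0.06 for Abca1, −0.42 for Srebf1 and −0.45 for Fasn, with 95% intervals of −0.23 to 0.12, −0.64 to −0.20 and −0.94 to 0.04. The intervals of Abca1 and Srebf1 overlap, which does not test whether these genes differ, as both were measured in the same livers. Their ratio within each liver is described above. Rnf145, with 2 mismatches to the repeat, had a log2 fold change of 0.0061.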
